A study of Brassica rapa subsp. pekinensis with 2 samples.

Results

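The microRNA family miR167 was examined in small RNA libraries of Chinese cabbage (Brassica rapa subsp. pekinensis). Every mature sequence whose name carries the miR167 number was taken, whatever its species prefix, arm or suffix, and each distinct sequence was counted once. This gave 17 distinct sequences under 20 names, of 1152 distinct sequences under 1220 names in the table. The group ‘Ant’ (1 library) was made from anthers of mixed developmental stages, and the group ‘Mix’ (1 library) from whole seedlings with 4 true leaves, that is root, stem and leaf together. Both came from the double haploid line ‘FT’, which was raised from an isolated microspore. Vernalization for 20 days at 4 °C stands in the labels of both samples, whereas the methods of the study give it for the ‘Ant’ plants only. With 1 library per group there was no replicate check of any difference, so each test below compares 2 libraries and not the 2 conditions, and each interval (95%) covers counting error only. In such tissue mixtures, fewer cells of a type and less RNA per cell cannot be told apart.

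Plant miR167 is cut by a DICER-LIKE enzyme from a hairpin precursor into a duplex of a 5p and a 3p strand. The 5p strand is the one known as the guide, and it pairs with the mRNAs of the auxin response factors ARF6 and ARF8, which are then cleaved. In Arabidopsis, ARF6 and ARF8 act together in stamen filament growth, anther dehiscence and pistil maturation. Arabidopsis plants that overproduce miR167 resemble plants lacking both factors, with flowers of low fertility.

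The 5p forms that carried most reads, and those that share their start, are given here to show where they differ. The sequences are those of the deposited table, written as DNA from 5′ to 3′, and the capitals mark the seed (bases 2 to 8). The prefix of a name is the species of the matched miRBase entry (bra, Brassica rapa; bna, B. napus; ath, Arabidopsis thaliana; aly, A. lyrata; cas, Camelina sativa; eun, Eugenia uniflora; gma, soybean; mdm, apple; mtr, Medicago truncatula; ptc, poplar; stu, potato). The suffixes L and R give bases lost or gained at the left and right end against that entry, ss gives substitutions, and p5 or p3 marks an arm not listed in miRBase.
bra-miR167a: tGAAGCTGccagcatgatcta
ath-miR167a-5p_R+1: tGAAGCTGccagcatgatctat
mtr-miR167a_R+2: tGAAGCTGccagcatgatctagc
gma-miR167a_R+2: tGAAGCTGccagcatgatctaca
bna-miR167d_R+1: tGAAGCTGccagcatgatctt
mdm-miR167h_R+1_1ss22AT: tGAAGCTGccagcatgatctttt
ath-miR167c-5p_L+1R+2_2ss2TG22GT: tGAAGCTGccagcatgatcttttc
bna-miR167d_L-1R+2_1ss2GT: tAAGCTGCcagcatgatcttg

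The first 7 of these share 1 seed, and the last has another, which is that of bra-miR167a moved 1 base toward the 3′ end. With the changes in its suffix undone, ath-miR167c-5p_L+1R+2_2ss2TG22GT becomes the sequence of this last form, which is thus that of the entry ath-miR167c-5p. The form bna-miR167d_R+1 differs from bra-miR167a by A21T, with positions counted from the 5′ end and the base of bra-miR167a given first. The 3p forms with most reads are shown with the same marking, to set them beside the 5p forms. Of these, cas-miR167c_L-2R+1 has no listed position, and the others are each listed on a precursor that also holds one of the 5p forms.
bra-MIR167d-p3: gATCATGTtcgcagtttcacc
ptc-miR167f-3p_L-1: gATCATGTggcagtttcacc
cas-miR167c_L-2R+1: gTCATGCTggtagcttcacc
cas-MIR167c-p3: aCTAGGTCatgctggtagctt

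The forms bra-MIR167d-p3 and ptc-miR167f-3p_L-1 have the same bases 2 to 8. The sequence of bra-MIR167d-p3 is also listed as bra-MIR167b-p3 and ath-miR167a-3p, and that of gma-miR167a_R+2 also as stu-miR167a-5p_R+2. In all, 9 of the 17 sequences were 5p forms and 8 were 3p forms.

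As a family, miR167 accounted for 15.9% of all miRNA reads of the ‘Ant’ library, against 2.68% in ‘Mix’. Its summed reads were 213701 in ‘Ant’, against 37410 in ‘Mix’. The reads are estimated counts, and some hold fractions where a read was split between forms. After the scaling of the authors, which multiplies all reads of a library by 1 factor, the sums were 210336 and 38008 normalized reads in ‘Ant’ and ‘Mix’, a log2 ratio of 2.47 (2.45 to 2.48). The 5p forms together had 118244 normalized reads in ‘Ant’ and 25104 in ‘Mix’ (log2 ratio 2.24, 2.22 to 2.26). The 3p forms together had 92091 in ‘Ant’ and 12905 in ‘Mix’ (log2 ratio 2.84, 2.81 to 2.86). The difference rested on 2 sequences, bra-miR167a and its 3p strand bra-MIR167d-p3, which made up 97.3% of the miR167 reads in ‘Ant’ and 66.7% in ‘Mix’. Without them, the other 15 sequences summed to 5599 normalized reads in ‘Ant’ and 12646 in ‘Mix’, and the log2 ratio turned to -1.18 (-1.22 to -1.13).

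**Figure D1:**
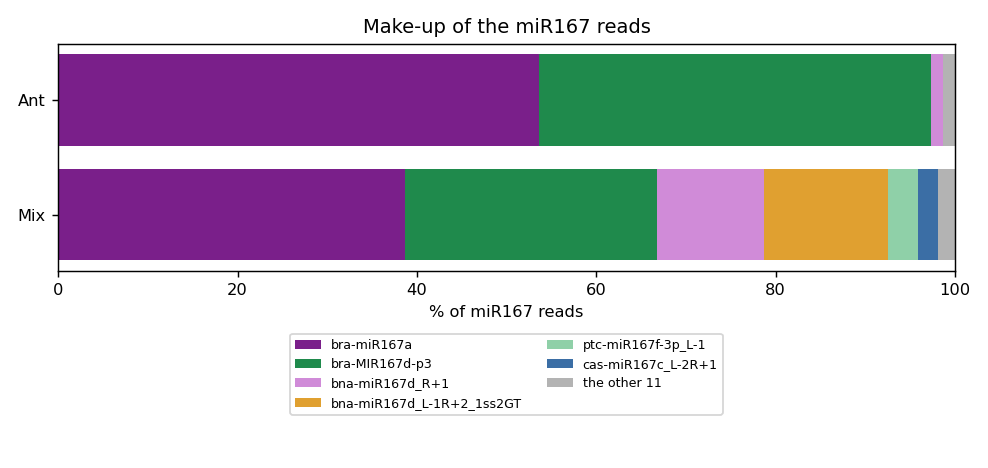
Make-up of the miR167 reads in ‘Ant’ (upper bar) and ‘Mix’ (lower bar), as percent of all miR167 reads of that library. The 2 most read sequences fill 97.3% of the bar of ‘Ant’ and 66.7% of the bar of ‘Mix’, where 4 further sequences are wide enough to be seen.

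Depth was similar in both libraries. Summed over distinct sequences, ‘Ant’ held 1346716 miRNA reads and ‘Mix’ held 1393755. A sequence listed at 0 could still have had up to 3 reads, or 0.000223% of this sum in ‘Ant’ and 0.000215% in ‘Mix’. The pollen miRNA family miR845 served as a check of the labels. Its 3 sequences summed to 11037 normalized reads in ‘Ant’ and 96.5 in ‘Mix’, and all 3 were called higher in ‘Ant’. No marker list for root, stem or leaf was used.

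A sequence was called when the chi-square test and the two-sided Fisher's exact test of its normalized reads against the rest of its library both gave p of at most 0.05, and the log2 ratio of ‘Ant’ over ‘Mix’ lay above 1 or below -1. Of the 17 miR167 sequences, 6 were called higher and 6 lower in ‘Ant’, and 5 were not called. Over all 1152 sequences, 46.5% were called, 27.3% higher and 19.3% lower. Of the 9 5p forms, 5 were called higher, 2 lower and 2 were not called. Of the 8 3p forms, 1 was called higher, 4 lower and 3 were not called. With smaller values raised to a floor of 3 reads, the median log2 ratio was -0.63 over the 17 sequences and -0.01 over all sequences. The median of the 17 was the floored value of aly-miR167b-3p_1ss18CT, which had 0 reads in ‘Ant’ and 4.5 in ‘Mix’. Of the 17, 6 had under 3 reads in at least 1 library, so this median depends on the floor. With edgeR's exact test at a biological coefficient of variation taken as 0.4, which allows for differences between plants that were not measured here, 29.5% of all sequences were called (17.1% higher and 12.4% lower), and 11 of the 17 miR167 sequences were (5 higher and 6 lower). Of the 17, 14 had at least 10 reads in at least 1 library.

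**Figure D2:**
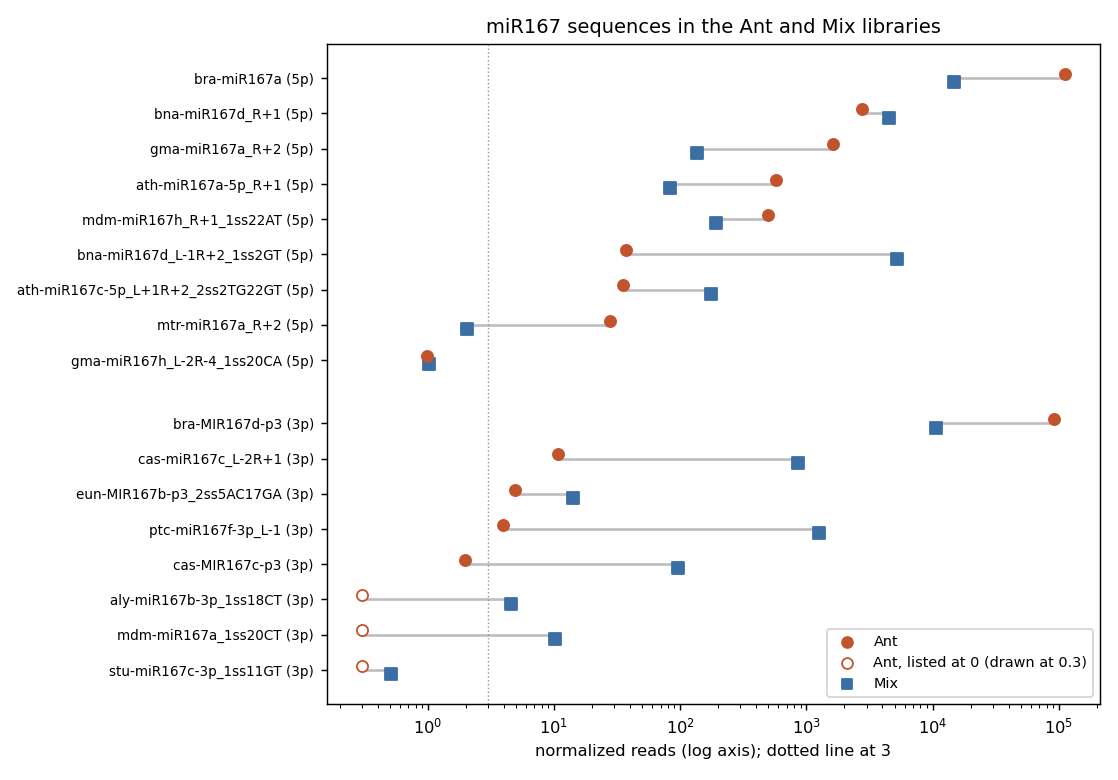
Normalized reads (log axis) of each miR167 sequence in ‘Ant’ (circles) and ‘Mix’ (squares), with 5p forms above 3p forms. Circles lie to the right of squares for bra-miR167a, the forms that extend it and bra-MIR167d-p3, and far to the left for bna-miR167d_L-1R+2_1ss2GT and ptc-miR167f-3p_L-1. The 3 open circles are sequences listed at 0 in ‘Ant’, drawn at 0.3.

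The canonical guide strand bra-miR167a had 114470 reads in ‘Ant’, against 14480 in ‘Mix’. It was the second most read miRNA sequence of ‘Ant’ and stood at rank 18 in ‘Mix’. Its log2 ratio was 2.94 (2.91 to 2.96), or 7.66-fold higher in ‘Ant’. The 3p strand bra-MIR167d-p3 had 93543 reads in ‘Ant’, against 10482 in ‘Mix’, with rank 4 in ‘Ant’ and rank 25 in ‘Mix’. Its log2 ratio was 3.11 (3.08 to 3.14). Both strands of this duplex were thus among the most read of the listed miRNA sequences of the anther library.

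Of the longer forms that begin with all of bra-miR167a, all 3 were called higher in ‘Ant’. The 23 nt form gma-miR167a_R+2 had 1658 reads in ‘Ant’, against 134 in ‘Mix’ (log2 ratio 3.59, 3.33 to 3.85). The 22 nt form ath-miR167a-5p_R+1 had 586 reads in ‘Ant’, against 82.5 in ‘Mix’ (log2 ratio 2.78, 2.46 to 3.14). The 23 nt form mtr-miR167a_R+2 had 28 reads in ‘Ant’, against 2 in ‘Mix’ (log2 ratio 3.76, 1.77 to 6.88). Relative to bra-miR167a, the form ath-miR167a-5p_R+1 amounted to 0.512 reads per 100 in ‘Ant’ and 0.57 per 100 in ‘Mix’, a difference within counting error (two-sided Fisher's exact test, p = 0.39, adjusted p = 0.445 over 8 forms). The form gma-miR167a_R+2 amounted to 1.45 per 100 in ‘Ant’ and 0.924 per 100 in ‘Mix’, a larger share in ‘Ant’ (Fisher's exact test, p = 1.76e-07, adjusted p = 2.81e-07). For mtr-miR167a_R+2, Fisher's exact test gave p = 0.572, with 2 reads in ‘Mix’.

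The 3 forms that share the first 20 bases of bra-miR167a and then carry T did not move together. The 21 nt form bna-miR167d_R+1 had 2814 reads in ‘Ant’, against 4488 in ‘Mix’. Its log2 ratio was -0.72 (-0.79 to -0.65), which is beyond counting error but inside the threshold, so that it was not called. The 23 nt form mdm-miR167h_R+1_1ss22AT had 506 reads in ‘Ant’, against 190 in ‘Mix’, and was called higher (log2 ratio 1.37, 1.12 to 1.62). The 24 nt form ath-miR167c-5p_L+1R+2_2ss2TG22GT had 35.5 reads in ‘Ant’, against 171 in ‘Mix’, and was called lower (log2 ratio -2.32, -2.86 to -1.78). These last 2 forms differ by 1 base at the 3′ end and were called in opposite directions, a pair chosen after the values were seen (difference in log2 ratio 3.69, Fisher's exact test, p = 4.33e-47, adjusted p = 8.65e-47 over 6 pairs). Together the 3 forms had 3303 normalized reads in ‘Ant’ and 4926 in ‘Mix’ (log2 ratio -0.58, -0.64 to -0.51).

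The 5p form with the other seed, bna-miR167d_L-1R+2_1ss2GT, had 37.5 reads in ‘Ant’, against 5160 in ‘Mix’. It was the third most read miR167 sequence of ‘Mix’, and 142-fold lower in ‘Ant’ (log2 ratio -7.15, -7.63 to -6.67). Among the 5p reads it made up 0.0312% (0.023 to 0.0434%, Wilson) in ‘Ant’ and 20.9% (20.4 to 21.4%) in ‘Mix’. Over the same reads, bra-miR167a made up 95.3% (95.2 to 95.4%) in ‘Ant’ and 58.6% (58 to 59.2%) in ‘Mix’, and bna-miR167d_R+1 made up 2.34% (2.26 to 2.43%) in ‘Ant’ and 18.2% (17.7 to 18.6%) in ‘Mix’. Set against bra-miR167a, bna-miR167d_R+1 was 12.6-fold lower in ‘Ant’ than in ‘Mix’ (Fisher's exact test, p = 8.32e-312) and bna-miR167d_L-1R+2_1ss2GT was 1088-fold lower.

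The ninth 5p form, the 18 nt gma-miR167h_L-2R-4_1ss20CA, had 1 read in each library. The reverse complement of bra-miR167a shares a run of 16 bases with it, although it is listed as a 5p form.

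**Figure D3:**
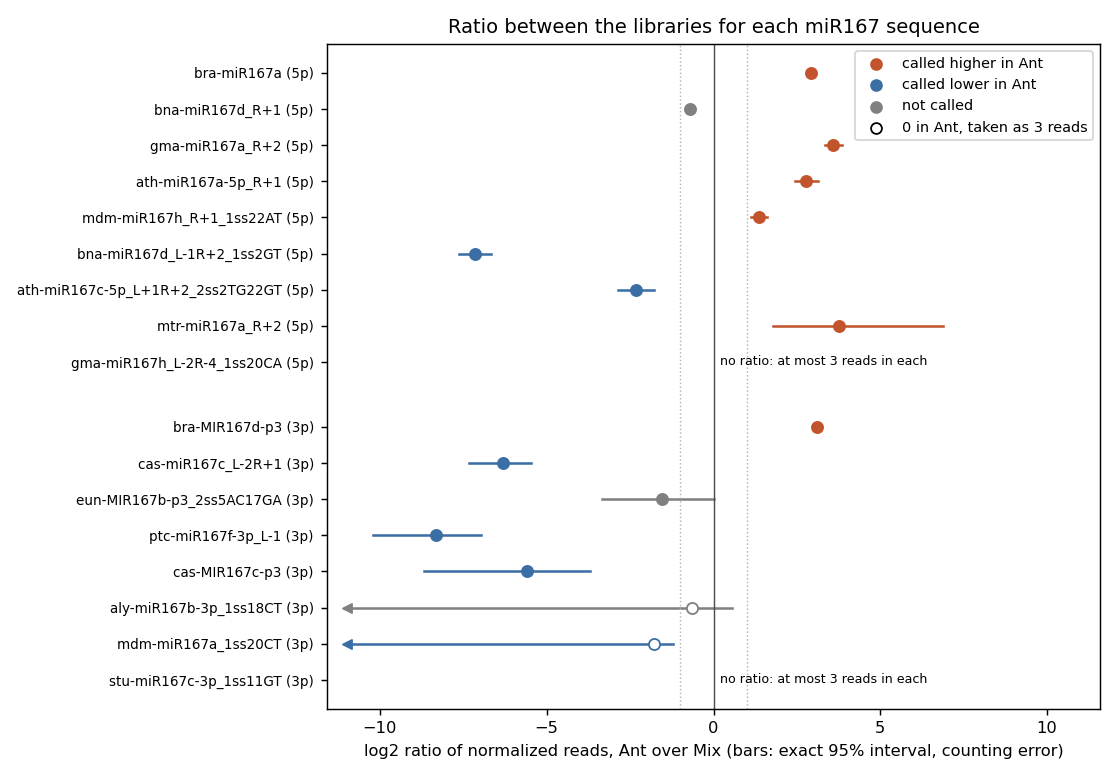
Log2 ratio of normalized reads, ‘Ant’ over ‘Mix’, for each miR167 sequence with its exact 95% interval (counting error), and arrows where an interval has no end. Among sequences with more than 3 reads in both libraries, values run between 3.59 for gma-miR167a_R+2 and -8.33 for ptc-miR167f-3p_L-1, the dotted lines mark the threshold of 1 in either direction, open circles are sequences at 0 in ‘Ant’ set to 3 reads, and 2 sequences with at most 3 reads in each library have no ratio.

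Apart from bra-MIR167d-p3, no 3p form was called higher in ‘Ant’, and the 4 called lower were nearly missing from that library. The form ptc-miR167f-3p_L-1 had 4 reads in ‘Ant’, against 1247 in ‘Mix’ (log2 ratio -8.33, -10.21 to -6.97). The form cas-miR167c_L-2R+1 had 11 reads in ‘Ant’, against 849 in ‘Mix’ (log2 ratio -6.32, -7.32 to -5.47). The form cas-MIR167c-p3 had 2 reads in ‘Ant’, against 94 in ‘Mix’ (log2 ratio -5.60, -8.67 to -3.71). The form mdm-miR167a_1ss20CT was listed at 0 in ‘Ant’, against 10 reads in ‘Mix’, and was 3.44-fold lower with ‘Ant’ set to the floor of 3 reads. Its exact interval ended at a log2 ratio of -1.21 on the upper side. The other 2 forms listed at 0 in ‘Ant’ had 4.5 reads (aly-miR167b-3p_1ss18CT) and 0.5 reads (stu-miR167c-3p_1ss11GT) in ‘Mix’ and were not called. None of the forms listed at 0 had a genome position, and whether they come from the Chinese cabbage genome was not tested. The form eun-MIR167b-p3_2ss5AC17GA had 5 reads in ‘Ant’, against 14 in ‘Mix’ (Fisher's exact test, p = 0.0663). Its listed hairpin on A05 had a folding energy of -14.9 kcal/mol, where the other listed miR167 hairpins had -48.9 to -67.5 kcal/mol. As listed, this hairpin overlaps 2 protein-coding genes of RefSeq (assembly CAAS_Brap_v3.01), where each of the other listed miR167 hairpins overlaps 0.

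Ordered by reads, the miR167 sequences of ‘Mix’ followed each other as bra-miR167a, bra-MIR167d-p3, bna-miR167d_L-1R+2_1ss2GT, bna-miR167d_R+1, ptc-miR167f-3p_L-1 and cas-miR167c_L-2R+1, and each of these differed from the next beyond counting error. In ‘Ant’ the order was bra-miR167a, bra-MIR167d-p3, bna-miR167d_R+1, gma-miR167a_R+2, ath-miR167a-5p_R+1 and mdm-miR167h_R+1_1ss22AT, again each beyond counting error of the next. Over the 16 neighbouring pairs of a library, 7 in ‘Ant’ and 8 in ‘Mix’ differed at an adjusted p of at most 0.05 (exact binomial test of the rounded reads). In ‘Ant’, bna-miR167d_L-1R+2_1ss2GT with 37.5 reads could not be told from ath-miR167c-5p_L+1R+2_2ss2TG22GT with 35.5 reads (exact binomial test, p = 0.908). In ‘Mix’, mdm-miR167h_R+1_1ss22AT with 190 reads could not be told from ath-miR167c-5p_L+1R+2_2ss2TG22GT with 171 reads (exact binomial test, p = 0.372).

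The sequences were next placed on their hairpins. Of the 17, 9 had a genome position in the table, whose build its notes do not name. Of 86 miRNA genes of RefSeq (assembly CAAS_Brap_v3.01) that could be matched by miRBase name and chromosome, 78 had the same start and end as listed. The sequence of bra-miR167a was listed at 3 precursors, bra-MIR167d (A05:18181356-18181479, minus strand), bra-MIR167b (A01:21199297-21199428, minus strand) and bra-MIR167a (A03:20198620-20198754, plus strand). Reads of bra-miR167a cannot be divided among them. The precursor bra-MIR167d is shown as the example of a hairpin with both arms in capitals, 5p first.
bra-MIR167d: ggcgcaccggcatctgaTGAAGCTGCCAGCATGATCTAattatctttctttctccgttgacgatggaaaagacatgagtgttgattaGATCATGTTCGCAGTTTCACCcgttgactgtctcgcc

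On A05 and A01 the listed 3p form matches the precursor exactly. On A03 the precursor stretch differs from the 3p form by T12C (precursor base first, position counted from the 5′ end of the 3p form), and reads as follows.
bra-MIR167a 3p stretch: gatcatgttcgtagtttcacc

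At these 3 hairpins the 2 arms lie with 3′ overhangs of 2 bases at either end and 18 paired bases in the 5p arm, the geometry known of DICER-LIKE products. The 3p form had 81.7 reads per 100 reads of bra-miR167a in ‘Ant’ and 72.4 per 100 in ‘Mix’, a difference of 0.17 on the log2 scale (Fisher's exact test, p = 3.38e-19). These 2 sequences thus changed by nearly the same factor. The 5p reads can come from all 3 hairpins, whereas the counted 3p form matches only those on A05 and A01 exactly. The ratio is therefore not that of any 1 hairpin, and a 3p form with the A03 base is not counted in it.

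The 2 precursors with forms lower in ‘Ant’ are shown with the same marking, because their arms behaved differently from each other. The first was listed on A09 (A09:12926296-12926418, minus strand) and the second on A05 (A05:27386116-27386259, plus strand), and both were listed under the miRBase precursor bna-MIR167d.
A09 precursor: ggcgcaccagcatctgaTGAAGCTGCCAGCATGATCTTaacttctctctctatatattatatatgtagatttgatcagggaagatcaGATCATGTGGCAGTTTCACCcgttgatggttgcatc
A05 precursor: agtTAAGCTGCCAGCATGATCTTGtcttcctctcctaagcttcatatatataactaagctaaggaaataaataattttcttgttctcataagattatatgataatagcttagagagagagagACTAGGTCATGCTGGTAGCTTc

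At the A09 precursor the 5p form is bna-miR167d_R+1 and the 3p form ptc-miR167f-3p_L-1, again with 3′ overhangs of 2 bases and 18 paired bases. The 3p form had 0.142 reads per 100 5p reads in ‘Ant’ and 27.8 per 100 in ‘Mix’. The ratio of the arms was 195-fold lower in ‘Ant’ (difference -7.61 on the log2 scale, Fisher's exact test, p = 1.11e-229). The 5p form had 2814 reads in ‘Ant’ while the 3p form had 4. However, this 5p form differs from bra-miR167a only at its last base. Per 100 reads of bra-miR167a it had 2.46 in ‘Ant’ and 31 in ‘Mix’. Whether all of its reads came from this precursor was not tested, so the ratio describes these 2 sequences. Neither of the other 2 pairs of arms had a ratio that differed as much.

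At the A05:27386116-27386259 precursor the 5p form is bna-miR167d_L-1R+2_1ss2GT and the 3p form cas-MIR167c-p3, and both were lower in ‘Ant’. These 2 forms do not lie as at the other hairpins. In the listed fold the 5p form has 19 paired bases, but the 3′ overhang is -1 at either end, so that each 3′ end stops 1 base short of the 5′ end opposite. The 2 forms are therefore compared as arms of 1 listed precursor and not as a duplex. The 3p form had 5.33 reads per 100 5p reads in ‘Ant’ and 1.82 per 100 in ‘Mix’, which did not differ beyond counting error at 2 reads of the 3p form in ‘Ant’ (Fisher's exact test, p = 0.163). The unplaced form cas-miR167c_L-2R+1 has 17 of its 20 bases, counted from its 5′ end, in common with the end of this precursor, where the listing stops. With its reads added, a step chosen after the values were seen, the 3p forms had 34.7 reads per 100 5p reads in ‘Ant’ and 18.3 per 100 in ‘Mix’ (Fisher's exact test, p = 0.0769).

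**Figure D4:**
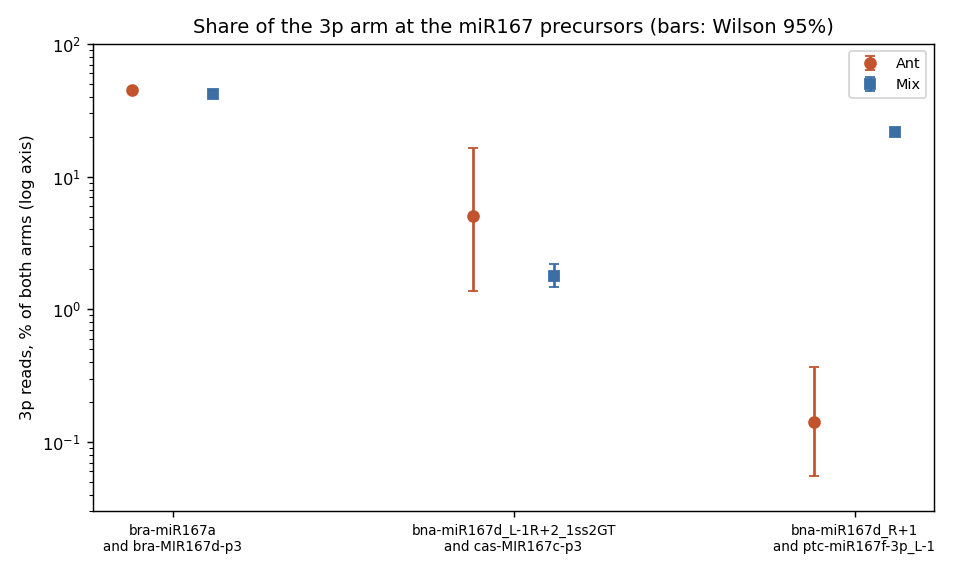
Share of the 3p form in the reads of both arms (percent, log axis) for the 3 pairs of arms listed on a precursor, in ‘Ant’ (circles) and ‘Mix’ (squares), with Wilson 95% intervals (counting error). The share is 45% in ‘Ant’ and 42% in ‘Mix’ for bra-miR167a, 5.06% in ‘Ant’ and 1.79% in ‘Mix’ for bna-miR167d_L-1R+2_1ss2GT, and 0.142% in ‘Ant’ and 21.7% in ‘Mix’ for bna-miR167d_R+1.

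Over the whole family, 3p forms made up 43.8% (43.6 to 44%) of the miR167 reads in ‘Ant’ and 34% (33.5 to 34.4%) in ‘Mix’, a difference of 9.83 percentage points (Fisher's exact test, p = 2.85e-281). Without the most read sequence of each arm the share was 0.387% in ‘Ant’ and 17.8% in ‘Mix’, so that the difference turned to -17.4 points.

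Several forms end in bases that their nearest listed precursor does not hold. These forms are shown once more, with capitals now marking the 3′ bases not found next in any listed miR167 precursor.
ath-miR167a-5p_R+1: tgaagctgccagcatgatctaT
mtr-miR167a_R+2: tgaagctgccagcatgatctagC
gma-miR167a_R+2: tgaagctgccagcatgatctaCA
mdm-miR167h_R+1_1ss22AT: tgaagctgccagcatgatcttTT
ath-miR167c-5p_L+1R+2_2ss2TG22GT: tgaagctgccagcatgatcttTTC

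The origin of these bases was not tested. By length, 21 nt forms held 98.7% of the miR167 reads in ‘Ant’ and 92.8% in ‘Mix’. The 20 nt forms, which are the 3p forms ptc-miR167f-3p_L-1 and cas-miR167c_L-2R+1, held 0.00702% in ‘Ant’ and 5.6% in ‘Mix’.

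**Figure D5:**
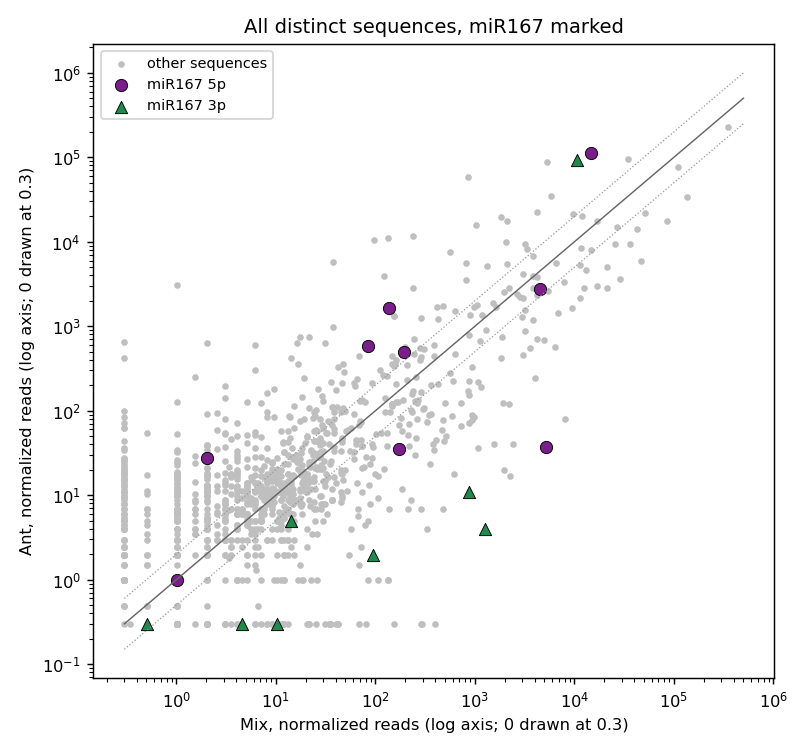
Normalized reads of all 1152 distinct sequences in ‘Ant’ (vertical, log axis) and ‘Mix’ (horizontal, log axis), with miR167 5p forms as circles and 3p forms as triangles, a solid line at equal reads and dotted lines at a log2 ratio of 1 in either direction. The miR167 sequences lie on both sides of the lines, with bra-miR167a and bra-MIR167d-p3 at the upper right.

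Among the 256 sequences with at least 100 normalized reads in either library, 42, bra-miR167a included, had a log2 ratio of at least that of bra-miR167a. The sequences of other families nearest to bra-miR167a by the distance of log2 normalized reads over the 2 libraries were cas-miR408 (94424 in ‘Ant’, 34725 in ‘Mix’), bna-miR397a (86937 in ‘Ant’, 5256 in ‘Mix’) and ath-miR398b-3p (34734 in ‘Ant’, 5883 in ‘Mix’), at distances of 1.26, 1.53 and 2.15. Nearest to bna-miR167d_L-1R+2_1ss2GT were gma-MIR5368-p3_1ss5CA (40.9 in ‘Ant’, 2401 in ‘Mix’), bra-miR391-3p (78.7 in ‘Ant’, 8064 in ‘Mix’) and PC-3p-2236_580 (16.7 in ‘Ant’, 2265 in ‘Mix’). A likeness over 2 libraries is a description only.

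Other miRNA families of the auxin pathway are given for comparison. The family miR160, which acts on ARF10, ARF16 and ARF17 in Arabidopsis, summed to 1040 normalized reads in ‘Ant’ and 8353 in ‘Mix’ (log2 ratio -3.01, -3.10 to -2.91), and 0 of its 9 sequences were called higher and 7 lower. The family miR390, which triggers the trans-acting siRNAs against ARF2, ARF3 and ARF4, summed to 4084 in ‘Ant’ and 6005 in ‘Mix’ (log2 ratio -0.56, -0.61 to -0.50), with 0 of 8 sequences called higher and 2 lower. The family miR393, which acts on the auxin receptors TIR1 and AFB, summed to 12168 in ‘Ant’ and 1494 in ‘Mix’ (log2 ratio 3.03, 2.95 to 3.10), with 6 of 11 sequences called higher and 2 lower. No sequence of miR847 was listed.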

How the data were processed

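Small RNA of 1 ‘Ant’ and 1 ‘Mix’ library was prepared with the TruSeq kit (about 1 µg of RNA in the methods, 5 µg in the labels) and sequenced single-end. The authors filtered out adapters, reads of low complexity and other RNA classes, and matched what remained, at 18 to 25 nt, with miRBase precursors; the mapping tool is not given in the sources used here. The deposited reads are estimated counts, with fractions in 32.7% (‘Ant’) and 31.3% (‘Mix’) of records. The deposited normalized signal is the reads times 0.984 (‘Ant’) or 1.02 (‘Mix’). The deposited score of each precursor (from folding energy, length and GC percent) supports no result here.

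Calls were made over all 1152 distinct sequences on rounded normalized reads, with unadjusted p-values, log2 ratios with exact binomial intervals and shares with Wilson intervals, and reads under 3 set to 3 for a bound. The thresholds follow the study. Members and lists were chosen with earlier results of these data known. Sequences given in full have at least 100 normalized reads in either library or are listed at 0 in one. The values of mtr-miR167a_R+2, cas-MIR167c-p3 and the remaining 2 members, which are outside this rule, are given so that every member is accounted for. Reads carry no molecular identifiers. The calls and intervals were tested on simulated counts that held counting error only, so variation between plants was not covered. Alternatives were each test alone, Benjamini-Hochberg adjustment, other scalings, read minimums, names in place of sequences, a stricter log2 threshold (2), a pseudocount (1 or 10), and the exact test of edgeR on rounded reads with the biological coefficient of variation taken as 0.2 or 0.4. Python 3.11.15, scipy 1.17.1, pandas 2.3.3, R 4.3.3 and edgeR 4.0.16 were used.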

Additional observations from a re-analysis of the deposited data

How the results depend on the processing

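Over the settings of the calls, between 8 and 13 distinct miR167 sequences were called, against 12 in the text. Counting names in place of sequences gave 15 called names. With at least 10 reads required in both libraries, 3 were called lower, against 6, since sequences scarce in ‘Ant’ drop out, and over all sequences 228 were called (109 higher, 119 lower), against 536 (314 higher, 222 lower). With this minimum, 47.8% of calls were higher in ‘Ant’, against 58.6%. With the biological coefficient of variation taken as 0.4, edgeR called 340 of all sequences (197 higher, 143 lower, or 29.5%) and 11 of the miR167 sequences (5 higher, 6 lower), and mdm-miR167h_R+1_1ss22AT was no longer called (log2 ratio 1.37). Scaling by TMM factors moved the median log2 ratio of all sequences by -0.21, and the ratio of the miR167 total was then 2.26. This median was taken without the floor of 3 reads and went from 0.302 to 0.0966. Without the most read sequence of each arm, the log2 ratio turned to -1.18 for the family, -0.90 for 5p and -6.70 for 3p, and the difference in 3p share to -17.4 points. The ratio of gma-miR167h_L-2R-4_1ss20CA, with 1 read in each library, turned sign when scaled by miRNA reads (0.0495). The cause was not tested for any of these changes other than the read minimum. No paired analysis was possible because each group has 1 library.

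Positions are printed as listed. For the minus strand, second entries of the A01 and A05 precursors are listed 76 and 67 bases from where their sequence places them. Whether this holds for the A09 precursor, or for the minus-strand hairpin of eun-MIR167b-p3_2ss5AC17GA, was not tested. Depth limits the ratios of sequences with few reads in ‘Ant’, where intervals span several log2 units. Variation between plants was not measured.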
